A study of Mus musculus with 15 samples.

Results

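Arc, Fos, Fosb, Jun, Junb, Egr1, Egr2, Npas4, Nr4a1 and Homer1 are activity-regulated immediate early genes. They were taken by gene symbol from a table of counts for 54532 mouse genes, and all 10 were found there and passed the filter on low counts. The table holds poly-A RNA-seq counts of 15 libraries, 5 for each of 3 groups, every library made from the basal ganglia of a separate mouse on the side of the lesion. The study is about Nao Yi Kang decoction (NYKD), a traditional Chinese herbal preparation, in intracerebral haemorrhage (ICH), a bleed into the brain. NYKD mice had ICH and received the decoction by oral gavage at 5.79 g/kg, once daily for 3 days. ICH mice and sham-operated mice were gavaged with distilled water instead. All mice carried the WT genotype, were killed under pentobarbital on day 3 and were perfused with saline. The design text names the treated group NYKD-M. The labels used here do not give age, sex or the way the bleed was induced. P values measure the spread between mice.

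Immediate early genes are transcribed within minutes of a stimulus without the need for new protein synthesis. In neurons the stimulus is calcium entry and ERK signalling after synaptic input, which act through CREB, SRF and MEF2 at promoters and enhancers that are already poised. Most of the products are transcription factors that switch on later genes, whereas Arc and the short form of Homer1 act at the synapse. Several of them, above all Jun, Fos, Junb and Egr1, are also induced by injury and by cytokines in glia, vessel cells and leukocytes. In the basal ganglia, medium spiny neurons of the striatum carry high levels of several of these transcripts at rest.

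The members did not move as a block. Fos and Jun were higher in ICH than in sham basal ganglia, Arc was lower, and the other 7 members did not pass the test. NYKD libraries differed from ICH libraries in 1 member, Npas4, which was lower in NYKD. Against sham, NYKD libraries had higher Fos and Jun, and lower Arc, Npas4 and Nr4a1. Levels are given below as CPM, a library's counts of a gene scaled to a common library size with TMM factors. Calls rest on edgeR's quasi-likelihood test with Benjamini-Hochberg adjustment over 18052 genes at a threshold of 0.05, and the ± after a log2 fold change is its standard error (SE).

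Library totals ran from 13539203 to 19909140 counts. A pair of libraries stood apart for these genes. ICH replicate 4 had 514.8 CPM summed over 6 neutrophil markers, of which 4 could be tested, against 40.9 to 48.9 CPM in the other ICH libraries. It also had the highest mean striatal neuron marker level of the ICH group, at 7.68 log2 CPM against 5.31 to 7.42, and the lowest mean levels of oligodendrocyte markers, at 8.43 against 9.40 to 10.2, and of microglial markers, at 5.69 against 6.98 to 7.16. Of the defining neutrophil markers, Ly6g had no count in 4 of 5 ICH libraries and at most 9 counts in the other, too few to be tested. Sham replicate 1 had a mean striatal neuron marker level of 5.67 log2 CPM, against 7.80 to 8.24 in the other sham libraries. Its thalamic marker mean was the highest of all 15 libraries, at 7.26 log2 CPM. NYKD replicate 5 also differed from its group. Its striatal marker mean was 3.36 log2 CPM, against 4.31 to 6.75 in the other NYKD libraries. Of all 15 libraries it had the lowest pan-neuronal mean (7.70) and the highest monocyte and macrophage mean (6.80). No list counts were made without it. Leaving it out gave 0 genes called in NYKD against ICH, as did leaving out NYKD replicate 1 or 3. Member calls that change without ICH replicate 4 or sham replicate 1 are given below with and without that library. Counts of marker and pathway lists also changed without them, and only some of those changes are given.

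The proximal promoters of the members, called or not, were searched for the letters through which CREB family factors are known to bind. RefSeq promoter windows (GRCm38.p6) were matched for 8 of the 10 members, with no window for Arc or Egr1, and came to 13 windows, since Egr2 has 5 and Homer1 has 2. The 250 bases before the transcript start are printed 5′ to 3′ on the gene's strand for the 4 called members with a window, to show how unlike they are. Capitals mark the short CRE motif TGACG, or CGTCA where it lies on the opposite strand. The windows are chr12:85473640-85473889 (plus strand) for Fos, chr4:95052223-95052472 (minus) for Jun, chr19:4989972-4990221 (minus) for Npas4 and chr15:101266596-101266845 (plus) for Nr4a1.
Fos: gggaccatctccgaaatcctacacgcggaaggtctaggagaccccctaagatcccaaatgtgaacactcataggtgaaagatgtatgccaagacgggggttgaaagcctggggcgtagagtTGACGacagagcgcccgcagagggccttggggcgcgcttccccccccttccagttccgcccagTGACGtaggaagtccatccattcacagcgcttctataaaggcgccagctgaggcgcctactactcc
Jun: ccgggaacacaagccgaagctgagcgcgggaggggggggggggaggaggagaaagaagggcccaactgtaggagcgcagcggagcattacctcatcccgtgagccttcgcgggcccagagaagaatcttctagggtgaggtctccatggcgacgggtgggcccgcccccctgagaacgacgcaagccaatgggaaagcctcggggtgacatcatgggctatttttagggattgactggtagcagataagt
Npas4: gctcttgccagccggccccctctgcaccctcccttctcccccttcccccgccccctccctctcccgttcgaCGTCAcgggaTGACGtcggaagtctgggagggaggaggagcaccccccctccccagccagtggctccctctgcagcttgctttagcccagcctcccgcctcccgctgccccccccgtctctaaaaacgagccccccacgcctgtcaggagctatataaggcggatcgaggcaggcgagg
Nr4a1: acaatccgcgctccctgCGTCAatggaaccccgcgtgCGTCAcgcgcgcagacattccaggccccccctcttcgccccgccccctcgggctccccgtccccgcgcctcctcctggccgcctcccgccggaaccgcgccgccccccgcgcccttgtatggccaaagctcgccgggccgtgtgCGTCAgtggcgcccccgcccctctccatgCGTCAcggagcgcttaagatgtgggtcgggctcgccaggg

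Nr4a1 held 4 copies of the short motif, Fos and Npas4 held 2 each, and Jun held 0. In Fos the copies began at -129 and -66, counted back from the transcript start, and the sequence TATAAA of the TATA box began at -33. In Npas4 the copies began at -179 and -169. Counted by gene, 7 of 8 members held TGACG in at least 1 window, all but Jun, as did 19.8% of 27025 mouse genes. Counted by window, it was in 9 of 13 member windows and in 17.8% of 32851 mouse windows of the same length, and some of the Egr2 windows overlap one another. The full CRE, TGACG followed by TCA, was in 0 of 13 member windows and in 1.55% of all windows. The AP-1 motif TGANTCA was in 0 of 13 and in 6.75% of all windows. The CArG box bound by SRF was in 4 of 13, all of them Egr2 windows, and in 1.47% of all windows, and TATAAA was in 1 of 13, that of Fos, and in 12.4% of all windows. Both strands were searched, and each longer CRE contains the shorter one. These are letter matches in short windows and carry no evidence of binding.

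Fos, which pairs with Jun proteins to form the AP-1 transcription factor, lies at chr12:85473890-85477273 on the plus strand. Its levels in replicates 1 to 5 were 21.8, 20.9, 18.5, 15.8 and 25.2 CPM in NYKD, 16.5, 25.9, 25.0, 38.9 and 20.5 CPM in ICH, and 14.7, 12.1, 10.2, 10.7 and 12.5 CPM in sham libraries. Every NYKD and every ICH library lay above every sham library, while NYKD and ICH overlapped. The log2 fold change was 1.07 ± 0.20 in ICH against sham (adjusted p = 0.00191) and 0.76 ± 0.20 in NYKD against sham (adjusted p = 0.0126). Between NYKD and ICH it was -0.31 ± 0.20 (adjusted p = 0.371). In bulk tissue, a change in the number of cells of a type and a change in RNA per cell cannot be told apart.

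Jun, the DNA-binding partner of Fos and a substrate of the stress kinase JNK, lies at chr4:95049034-95052222 on the minus strand. It measured 85.0, 94.0, 115, 108 and 106 CPM in NYKD, 71.2, 95.4, 91.4, 96.1 and 83.5 CPM in ICH, and 65.4, 42.6, 44.1, 40.2 and 37.8 CPM in sham libraries. Again both bleed groups lay wholly above sham, with sham replicate 1 closest to them. Its log2 fold change was 0.93 ± 0.15 in ICH against sham (adjusted p = 0.000673) and 1.14 ± 0.15 in NYKD against sham (adjusted p = 6.8e-05). NYKD against ICH gave 0.22 ± 0.15 (adjusted p = 0.409). Jun overlaps the antisense transcript Junos, which averaged 36.8 counts per library, and whether counting used the strand is not stated in the labels.

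Beside the rise of Fos and Jun, markers of monocytes, microglia and vessels were higher in the bleed groups, and those of oligodendrocytes were not. The 6 monocyte and macrophage markers summed to between 742 and 1808 CPM in NYKD, 283 and 1337 CPM in ICH and 12.7 and 175 CPM in sham libraries, and the 5 that could be tested were all called raised in NYKD and in ICH against sham, also without ICH replicate 4. Ly6c2, which was too low to be tested, had no count in 1 sham library. Of the 4 neutrophil markers tested, 4 were raised in ICH and 2 in NYKD against sham. Without ICH replicate 4 these counts changed places, with 2 raised in ICH and 4 in NYKD against sham. DESeq2 called 1, Csf3r, in each comparison with all libraries. The 6 neutrophil markers summed to 32.2 to 53.7 CPM in NYKD, 40.9 to 514.8 CPM in ICH and 8.48 to 24.6 CPM in sham libraries. Of all genes tested, 15.3% were raised and 8.08% lowered in NYKD against sham, and 12.4% raised and 4.58% lowered in ICH against sham. Of 6 microglial markers, 5 were raised in NYKD and 3 in ICH against sham, and the same numbers held for 6 endothelial markers. Of 7 astrocyte markers, 4 were raised in NYKD against sham, and in ICH 2 were raised and Aldoc lowered. Without ICH replicate 4, 4 were raised and 0 lowered in ICH, and without sham replicate 1, 3 were raised and 0 lowered. Of all genes, 12.7% and 11.9% were raised in ICH against sham in these settings. Of 6 oligodendrocyte markers, 0 were raised by edgeR, DESeq2 or limma-voom, all 6 had a log2 fold change below 0 against sham, with medians of -0.39 in NYKD and -0.62 in ICH, and Cnp was lowered in ICH. The part of these cells in the Fos and Jun levels was not tested.

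Junb, an AP-1 subunit that tempers Jun activity, lies at chr8:84974484-84978718 on the minus strand and did not pass in any comparison. It ran from 30.2 to 53.3 CPM in NYKD, from 27.3 to 195 CPM in ICH and from 23.7 to 44.9 CPM in sham libraries. The ICH maximum was replicate 4, and the other 4 ICH libraries reached at most 55.9 CPM. The log2 fold change in ICH against sham was 0.95 ± 0.42 (adjusted p = 0.135) and came to 0.16 without ICH replicate 4. NYKD against ICH gave -0.72 ± 0.42 (adjusted p = 0.320), and 0.07 without that library. Exons of Junb overlap those of Prdx2 on the opposite strand, a gene with a mean of 2862 counts per library, so its counts are uncertain.

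Fosb, whose truncated product delta-FosB accumulates in striatal neurons under repeated stimulation, lies at chr7:19302696-19310051 on the minus strand. Counts per gene cannot separate the 2 forms. It was the most variable member within a group, with a highest ICH library 16.8 times the lowest. Levels ran from 1.41 to 7.83 CPM in NYKD, from 1.30 to 21.8 CPM in ICH and from 2.84 to 16.3 CPM in sham libraries, all 3 ranges overlapping. It gave log2 fold changes of -0.02 ± 0.63 in ICH against sham (adjusted p = 0.985), -0.67 ± 0.64 in NYKD against ICH (adjusted p = 0.565) and -0.69 ± 0.64 in NYKD against sham (adjusted p = 0.461).

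**Figure D1:**
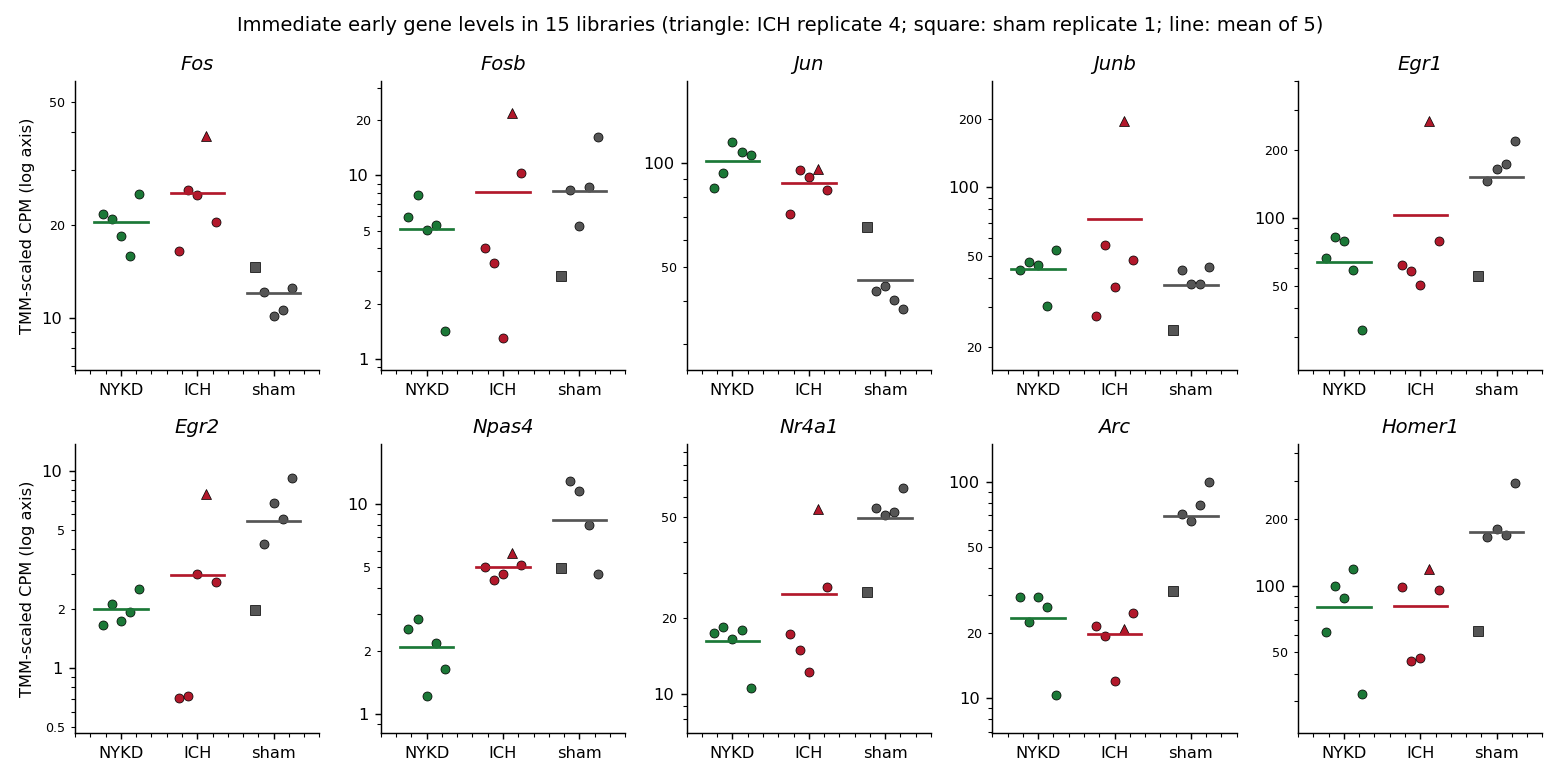
Levels of the 10 members in every library as TMM-scaled CPM on log axes, with NYKD, ICH and sham from left to right, 1 point per mouse and a line at each group mean. Fos and Jun lie above all sham libraries in both bleed groups, Arc lies below all of them, and ICH replicate 4 (triangle) is far above its group for Junb, Egr1, Egr2, Nr4a1 and Fosb.

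Egr1, a zinc finger factor induced by ERK signalling and needed for lasting synaptic change, lies at chr18:34859823-34864984 on the plus strand. It measured 66.3, 82.7, 79.1, 59.1 and 32.0 CPM in NYKD, 61.9, 58.5, 50.7, 267 and 79.3 CPM in ICH, and 55.7, 145, 165, 173 and 219 CPM in sham libraries. A single ICH library and a single sham library broke an otherwise clear order. The 4 other ICH libraries reached at most 79.3 CPM, whereas the 4 other sham libraries started at 145 CPM.

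As deposited, Egr1 did not pass in ICH against sham, at a log2 fold change of -0.55 ± 0.46 (adjusted p = 0.441). Without ICH replicate 4 it was -1.28 (adjusted p = 0.0136). In NYKD against sham it was -1.25 ± 0.46 (adjusted p = 0.0622), and it passed without ICH replicate 4 (-1.24, adjusted p = 0.00760), whose spread enters the shared model, and without sham replicate 1 (-1.45, adjusted p = 0.0284). NYKD against ICH gave -0.70 ± 0.46 (adjusted p = 0.380), and 0.04 without ICH replicate 4.

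Egr2, a relative of Egr1 that also drives myelin genes in Schwann cells, lies at chr10:67535475-67542188 on the plus strand and was among the lowest members. Its counts ran from 27 to 43 in NYKD, from 11 to 108 in ICH and from 32 to 157 in sham libraries. In CPM the ranges were 1.65 to 2.53 in NYKD, 0.703 to 7.63 in ICH and 1.97 to 9.12 in sham libraries, with overlap in every pair of groups. As a log2 fold change this was -0.92 ± 0.53 in ICH against sham (adjusted p = 0.255) and -1.63 without ICH replicate 4 (adjusted p = 0.0237).

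Egr2 in NYKD against sham gave -1.48 ± 0.54 (adjusted p = 0.0565). This passed when ICH replicate 1 (adjusted p = 0.0365), ICH replicate 2 (0.0385), ICH replicate 4 (0.0193) or sham replicate 1 (0.0314) was left out of the edgeR fit. NYKD against ICH gave -0.57 ± 0.54 (adjusted p = 0.562), and 0.16 without ICH replicate 4.

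Npas4, a neuron-restricted factor that is induced by calcium entry and drives inhibitory synapse genes, lies at chr19:4984355-4990316 on the minus strand. It measured 2.54, 2.84, 1.22, 2.18 and 1.64 CPM in NYKD, 5.05, 4.35, 4.66, 5.87 and 5.15 CPM in ICH, and 4.99, 12.97, 11.6, 7.96 and 4.65 CPM in sham libraries. The highest NYKD library lay below the lowest library of either other group. Raw counts behind these levels were small, at 19 to 46 in NYKD, 72 to 85 in ICH and 80 to 227 in sham libraries.

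In NYKD against ICH the log2 fold change of Npas4 was -1.26 ± 0.31 (adjusted p = 0.0396), and it was lower in 5 of 5 NYKD libraries. The call was lost on leaving out NYKD replicate 1, 3, 4 or 5, ICH replicate 2, 3, 4 or 5, or sham replicate 3 or 4, with adjusted p between 0.0510 and 0.101, while the log2 fold change stayed between -1.11 and -1.40 over all 15 such fits. DESeq2 gave an adjusted p of 0.00435 and limma-voom 0.0644. Set against sham, Npas4 in NYKD stood at -2.01 ± 0.31 (adjusted p = 0.000237). ICH against sham gave -0.75 ± 0.30 (adjusted p = 0.0934), which passed without sham replicate 1 (adjusted p = 0.0496) or sham replicate 5 (0.0389).

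Striatal neuron markers moved in the same direction as Npas4 between NYKD and ICH. Of 12 such markers, 0 were called in NYKD against ICH by edgeR, DESeq2 or limma-voom, and 1 had an unadjusted p under 0.05 in edgeR, but all 12 had a log2 fold change below 0, with a median of -1.02 against -0.01 over all genes tested. Their mean level ran from 3.36 to 6.75 log2 CPM in NYKD, from 5.31 to 7.68 in ICH and from 5.67 to 8.24 in sham libraries. Against sham, 7 of 12 were called lowered in NYKD and 0 raised, with a median of -2.03, and 10 were lowered without sham replicate 1. Of all genes, 8.08% were lowered in that comparison, and 7.37% without sham replicate 1. For ICH against sham 0 of 12 were called by edgeR, DESeq2 or limma-voom and 0 had an unadjusted p under 0.05 in edgeR, with a median of -1.04. With both ICH replicate 4 and sham replicate 1 left out, 2, Rarb and Rgs9, were lowered, where 6.79% of all genes were. Rgs9, a regulator of dopamine receptor signalling, was at -2.62 in NYKD against sham (adjusted p = 0.00617), and the dopamine receptor Drd2 at -1.99 (adjusted p = 0.0195). The part of these neurons in the Npas4 levels was not tested, and the values relative to these markers are given below. Other neuron lists had medians above 0 in NYKD against ICH, with 0 genes called by edgeR, DESeq2 or limma-voom: 0.83 for 8 cortical markers, all 8 above 0, 0.47 for 5 thalamic markers, 4 above 0, and 0.28 for 8 pan-neuronal markers, 6 above 0. At an unadjusted p under 0.05 edgeR gave 1 cortical, 1 thalamic and 0 pan-neuronal markers. Cortical and thalamic content varied widely within groups. The cortical mean ran from 2.38 to 5.31 log2 CPM in NYKD, 1.36 to 4.81 in ICH and 1.99 to 5.09 in sham libraries. The thalamic mean ran from 5.96 to 6.64 in NYKD, 4.04 to 6.69 in ICH and 4.78 to 7.26 in sham libraries.

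Nr4a1, an orphan nuclear receptor induced by depolarisation and by inflammatory signals in myeloid cells, lies at chr15:101254269-101274795 on the plus strand. It measured 17.4, 18.4, 16.5, 18.0 and 10.6 CPM in NYKD, 17.3, 14.9, 12.2, 53.6 and 26.4 CPM in ICH, and 25.2, 54.2, 50.9, 52.3 and 64.8 CPM in sham libraries. All NYKD libraries lay below all sham libraries, whereas ICH replicates 4 and 5 reached into the sham range. The log2 fold change in NYKD against sham was -1.61 ± 0.35 (adjusted p = 0.00396).

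In ICH against sham, Nr4a1 gave -0.99 ± 0.35 (adjusted p = 0.0611). The difference passed without ICH replicate 4 (-1.49, adjusted p = 0.000971) and without sham replicate 1 (-1.16, adjusted p = 0.0273). NYKD against ICH gave -0.62 ± 0.35 (adjusted p = 0.302), and -0.12 without ICH replicate 4.

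Arc, the synaptic protein that drives removal of AMPA receptors and whose messenger RNA is carried into active dendrites, lies at chr15:74669083-74672570 on the minus strand. It measured 29.3, 22.5, 29.3, 26.5 and 10.4 CPM in NYKD, 21.5, 19.4, 12.0, 21.0 and 24.7 CPM in ICH, and 31.3, 70.6, 65.9, 78.2 and 99.7 CPM in sham libraries. Every bleed library was below every sham library, and ICH replicate 4 was within its group for Arc, unlike for Egr1, Junb and Nr4a1. The lowest sham value was replicate 1, the library with few striatal marker counts.

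The log2 fold change of Arc was -1.81 ± 0.30 in ICH against sham (adjusted p = 0.000852), the largest fall among the members and the 21st largest among the 18052 genes tested. In NYKD against sham it was -1.55 ± 0.30 (adjusted p = 0.00158), and in NYKD against ICH 0.26 ± 0.30 (adjusted p = 0.637).

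Homer1, a scaffold of metabotropic glutamate receptors, lies at chr13:93299635-93405129 on the plus strand. Its activity-induced short form Homer1a and its steady long forms share the first exons and are summed in these counts. It measured 61.8, 99.4, 88.2, 119 and 32.4 CPM in NYKD, 98.8, 45.6, 47.2, 119 and 95.4 CPM in ICH, and 62.3, 167, 181, 169.6 and 294 CPM in sham libraries. Sham replicate 1 alone made the groups overlap.

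With all libraries, Homer1 did not pass in ICH against sham (-1.11 ± 0.40, adjusted p = 0.0682) or in NYKD against sham (-1.12 ± 0.40, adjusted p = 0.0520). Without sham replicate 1 both passed, at -1.33 (adjusted p = 0.0195) and -1.33 (adjusted p = 0.0145). ICH against sham also passed without NYKD replicate 5 (adjusted p = 0.0454), and NYKD against sham without NYKD replicate 4 (0.0413) or ICH replicate 2 (0.0487). NYKD against ICH gave -0.02 ± 0.39 (adjusted p = 0.984), and its sign changed with the library left out.

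**Figure D2:**
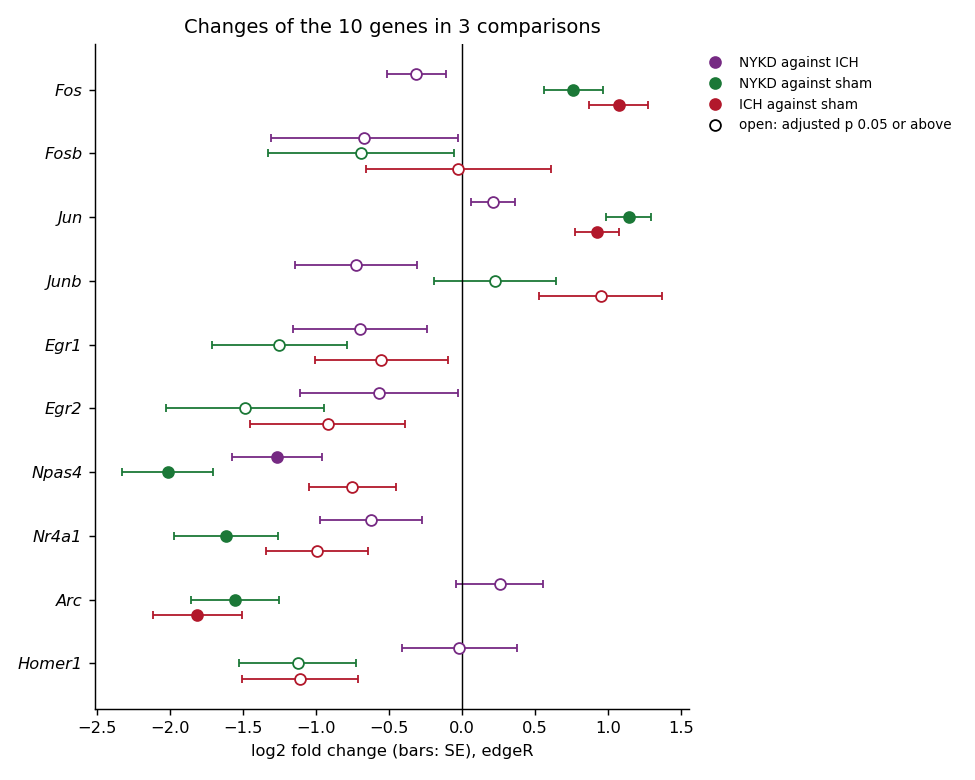
Log2 fold changes of the 10 members (points) with SE (bars) from the edgeR model, for NYKD against ICH, NYKD against sham and ICH against sham. Filled points passed the adjusted threshold: Fos, Jun and Arc in ICH against sham, Npas4 in NYKD against ICH, and Fos, Jun, Npas4, Nr4a1 and Arc in NYKD against sham.

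Across the list, 3 of 10 members were called in ICH against sham, 2 raised and 1 lowered, where 17.0% of all genes tested were called, 12.4% raised and 4.58% lowered. In NYKD against ICH, 1 of 10 was called, lowered, where 3.46% of all genes were called, 1.19% raised and 2.27% lowered. In NYKD against sham, 5 of 10 were called, 2 raised and 3 lowered, where 23.4% of all genes were called, 15.3% raised and 8.08% lowered. A list of 10 is too short for these shares to be read as particular to it. The median log2 fold change of the members was -0.65 in ICH against sham, where that of all genes tested was 0.05. It was -0.59 for NYKD against ICH, where that of all genes was -0.01, and -1.19 for NYKD against sham, where that of all genes was -0.02. The NYKD against ICH median leaned on ICH replicate 4. Without that library, Junb was at 0.07, Egr1 at 0.04, Egr2 at 0.16, Fosb at 0.13 and Nr4a1 at -0.12 in this comparison. Npas4 stayed between -1.11 and -1.40 with any single library left out. The comparisons share libraries, so their values for a gene are not independent.

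The counts moved with the libraries that stood apart. Without ICH replicate 4, 6 members and 17.9% of all genes were called in ICH against sham, 0 members and 1 gene in NYKD against ICH, and 7 members and 26.1% of genes in NYKD against sham. Without sham replicate 1, 6 members and 16.7% of genes were called in ICH against sham, and 8 members and 21.8% of genes in NYKD against sham. With both left out, a setting chosen after seeing the data, 8 of 10 members were called in ICH against sham, Fos and Jun raised and Arc, Egr1, Egr2, Npas4, Nr4a1 and Homer1 lowered, where 20.4% of all genes were called, 13.6% raised and 6.79% lowered. The same setting gave 8 members and 25.6% of genes in NYKD against sham. For NYKD against ICH it gave 0 members and 0 genes in the whole table by edgeR, and Npas4 was then at -1.19 (adjusted p = 0.0734). The NYKD against ICH comparison called 625 genes with all libraries and between 0 and 1508 with 1 left out.

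**Figure D3:**
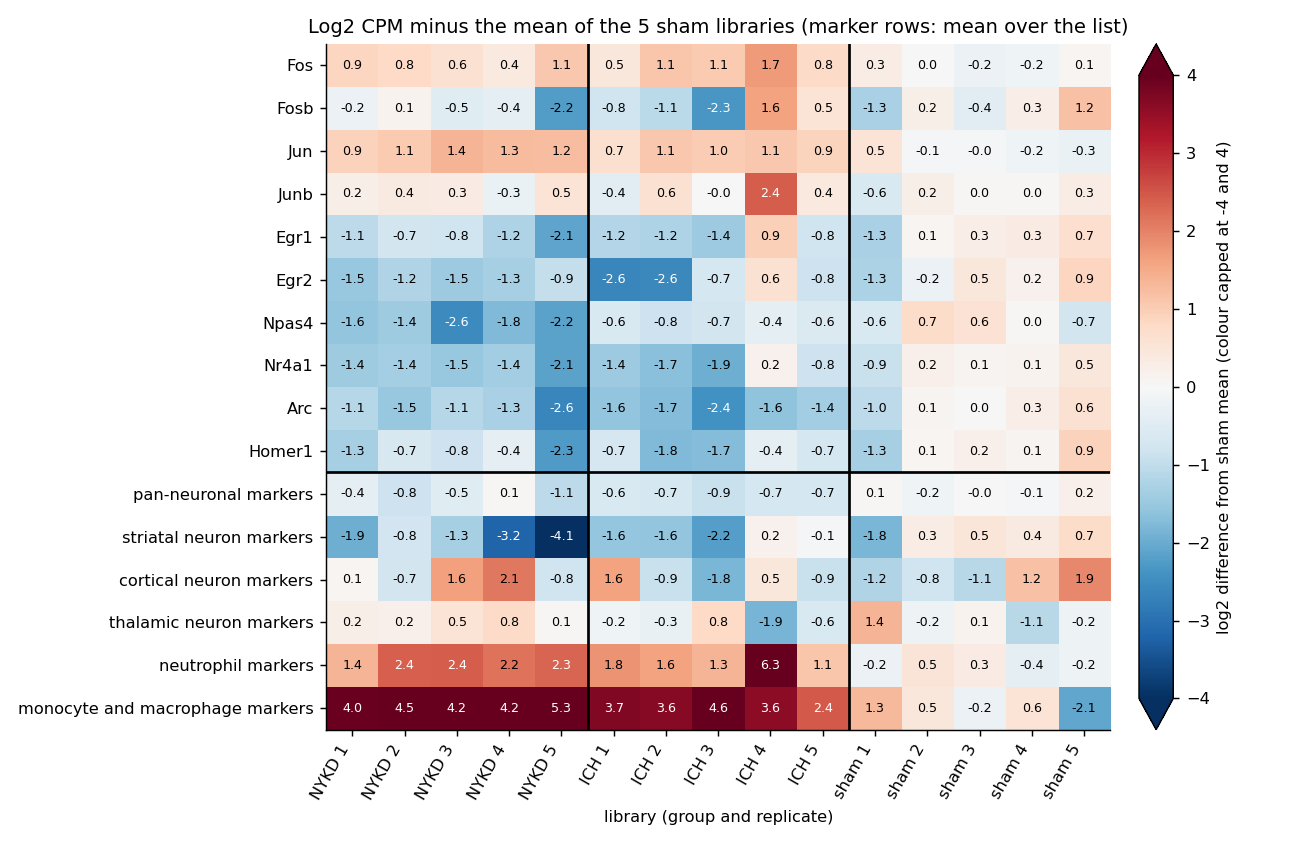
Log2 CPM of each member, and mean log2 CPM of 6 marker lists, minus the mean of the 5 sham libraries, with NYKD, ICH and sham columns from left to right. ICH replicate 4 carries high Junb and Egr1 with neutrophil markers that sum to 514.8 CPM, and sham replicate 1 carries low Arc, Egr1 and Homer1 with low striatal markers.

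Within a library, levels per kilobase of exon can be ranked between genes. The place of Junb is uncertain, since its exons overlap those of Prdx2 and the use of strand in counting is unstated. The highest NYKD means were Jun (31.9 ± 3.79 CPM per kb, SD, n = 5), Junb (19.1 ± 3.71) and Egr1 (14.2 ± 4.50). In ICH they were Junb (31.5 ± 30.1), Jun (27.4 ± 3.26) and Egr1 (23.1 ± 20.5), where the Junb and Egr1 means carry replicate 4. Over the other 4 ICH libraries the order was Jun (26.8 ± 3.35), Junb (18.3 ± 5.48) and Egr1 (14.0 ± 2.69), which is that of NYKD. In sham basal ganglia they were Egr1 (33.8 ± 13.4), Arc (22.6 ± 8.12) and Junb (16.3 ± 3.63), in the same order without replicate 1 (39.1, 25.7 and 17.8). Arc stood at 7.72 ± 2.58 CPM per kb in NYKD and 6.45 ± 1.55 in ICH, below Fos in both. Taken as mean ± SD over all libraries, neighbours in these orders overlapped except Jun above Junb and Nr4a1 above Fosb in NYKD, Arc above Fosb in ICH, and Nr4a1 above Fos and Fos above Npas4 in sham. Npas4, Egr2 and Fosb were the 3 lowest in all groups, at 2.04 CPM per kb or below with all libraries.

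Since neuronal marker levels differed between the groups, the member levels were also set against neuronal markers, as a description with no test. The 8 pan-neuronal markers had mean levels of 7.70 to 8.82 log2 CPM in NYKD, 7.89 to 8.17 in ICH and 8.60 to 8.96 in sham libraries, and 3 of 8 were called lowered in ICH against sham and 1 of 8 in NYKD against sham, or 4 of 8 in each by DESeq2. Of all genes, 4.58% and 8.08% were lowered in these comparisons by edgeR, and 8.62% and 12% by DESeq2. Relative to the pan-neuronal mean, Fos lay 1.73 log2 units higher in ICH than in sham libraries and Jun 1.66 higher, with no overlap. NYKD against sham gave 1.29 for Fos and 1.70 for Jun, also with no overlap. Set against the striatal markers, both genes were again higher on average, Fos by 3.03 and Jun by 3.44 in NYKD against sham and by 2.07 and 1.996 in ICH against sham. The groups overlapped in each case, through sham replicate 1.

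Arc relative to the pan-neuronal mean differed by -1.04 between ICH and sham and by -1.004 between NYKD and sham, whereas in CPM it fell by 1.81 and by 1.55. The groups then overlapped through sham replicate 1. Against the striatal markers the Arc difference was -0.70 for ICH against sham and 0.74 for NYKD against sham, so its direction in NYKD turned with the marker list. Npas4 relative to the pan-neuronal mean was 1.44 log2 units lower in NYKD than in ICH with no overlap, but the difference was -0.04 against the striatal markers, with wide overlap. In NYKD against sham, Npas4 gave -1.36 against the pan-neuronal and 0.39 against the striatal markers, with overlap in both. Nr4a1 in NYKD against sham likewise gave -1.03 against the pan-neuronal and 0.71 against the striatal markers.

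**Figure D4:**
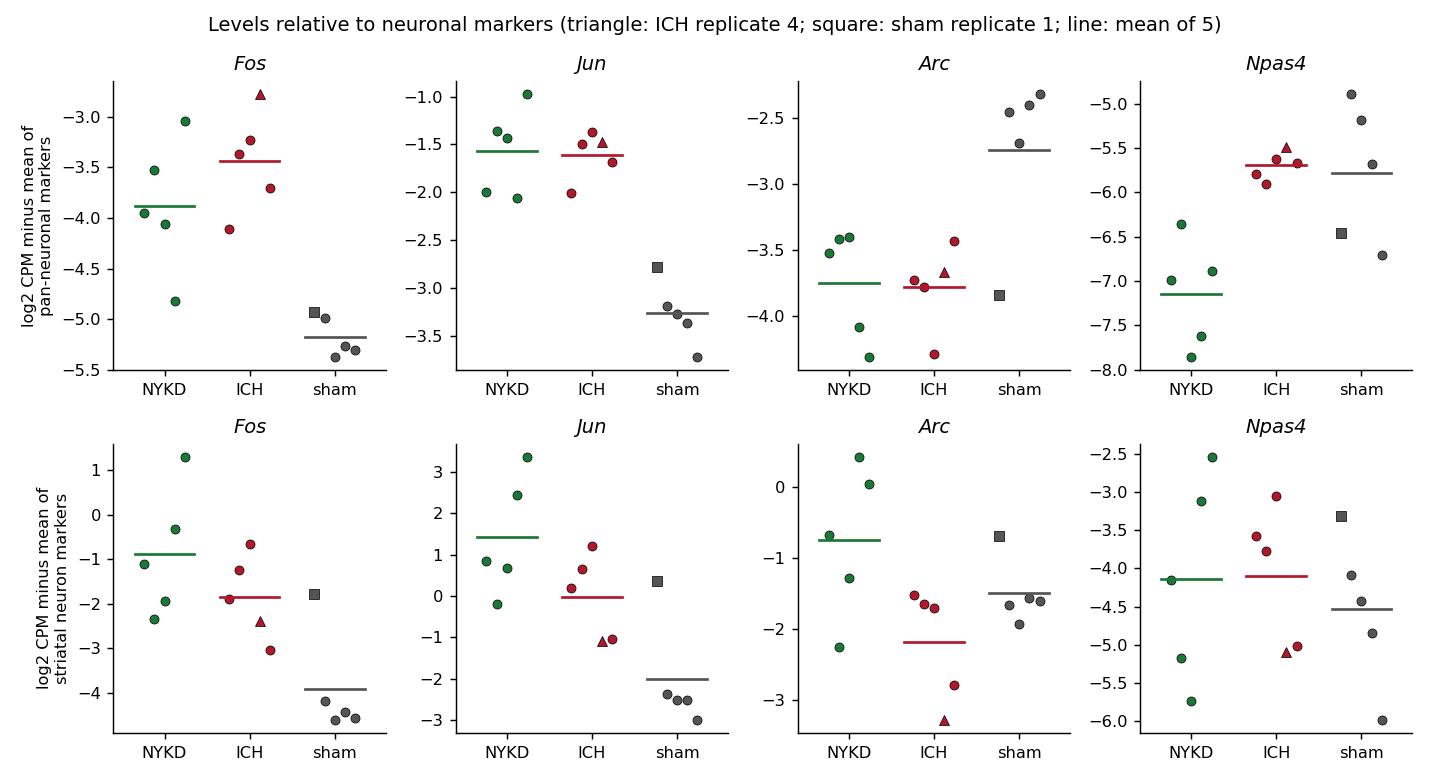
Log2 CPM of Fos, Jun, Arc and Npas4 minus the mean of 8 pan-neuronal markers (upper row) or 12 striatal neuron markers (lower row), for NYKD, ICH and sham libraries, 1 point per mouse and a line at each group mean. Npas4 separates NYKD from ICH in the upper row (difference -1.44) and not in the lower row (-0.04).

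Beyond the members, 30 other rapid response genes were tested. In ICH against sham 12 rose and 1 fell, where 12.4% of all genes tested rose and 4.58% fell. The list median was 0.66 log2 units against 0.05 over all genes tested. Without ICH replicate 4, 10 rose and 1 fell, where 12.7% of all genes rose and 5.16% fell. Gadd45b, Ier2 and Klf2 were then no longer called and Dusp6 was called raised. These list counts without single libraries were added after seeing the data. The matricellular gene Ccn1 rose by 2.53 ± 0.28 (adjusted p = 4.00e-05), the growth gene Myc by 1.46 ± 0.19 (adjusted p = 0.000135) and the ubiquitin ligase adaptor Trib1 by 1.17 ± 0.20 (adjusted p = 0.000746). Rgs2, which limits G protein signalling, was the 1 that fell, by 0.74 (adjusted p = 0.00165). Zfp36, a messenger RNA decay factor, was also raised, at 36.4 ± 34.1 CPM in ICH and 8.33 ± 2.41 CPM in sham libraries (SD, n = 5 each). Gadd45b, a gene linked to DNA demethylation, was raised by 2.46 with all libraries (adjusted p = 0.0281) and was at 0.62 without ICH replicate 4 (adjusted p = 0.0529). Without that library Zfp36 was at 1.35 and passed, and with all libraries at 2.13.

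Against sham, 9 of these 30 rose in NYKD and 2 fell, with a list median of 0.40, where 15.3% of all genes rose and 8.08% fell. Without sham replicate 1, 9 rose and 4 fell, Egr3 and Egr4 among them, where 14.4% of all genes rose and 7.37% fell. DESeq2 gave the same 4 falls with all libraries, where 12% of all genes fell. Without ICH replicate 4, 10 rose and 3 fell, where 16.8% of all genes rose and 9.34% fell. Myc was at 15.3 ± 3.36 CPM in NYKD and 4.96 ± 1.14 CPM in sham libraries (SD, n = 5 each), a log2 fold change of 1.63. Ccn1 was at 30.9 ± 5.91 CPM in NYKD and 6.82 ± 1.70 CPM in sham libraries, and the zinc finger factor gene Klf6 at 76.1 ± 4.92 CPM in NYKD and 37.3 ± 6.85 CPM in sham libraries. The small GTPase gene Arl4d fell with Rgs2, at 10.7 ± 3.69 CPM in NYKD and 37.3 ± 3.68 CPM in sham libraries. Between NYKD and ICH, 0 of 30 passed by edgeR, DESeq2 or limma-voom, and 2 had an unadjusted p under 0.05 in edgeR, with a list median of -0.28. The smallest adjusted p was 0.0944, for Gadd45b at -2.10 ± 0.70, whose mean was 13.3 ± 1.77 CPM in NYKD and 56.9 ± 91.9 CPM in ICH (SD, n = 5 each), and which was at -0.25 without ICH replicate 4. Maff gave -1.16 (adjusted p = 0.169), or -0.29 without that library, and Klf2 -0.47 (adjusted p = 0.279), or -0.27.

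**Figure D5:**
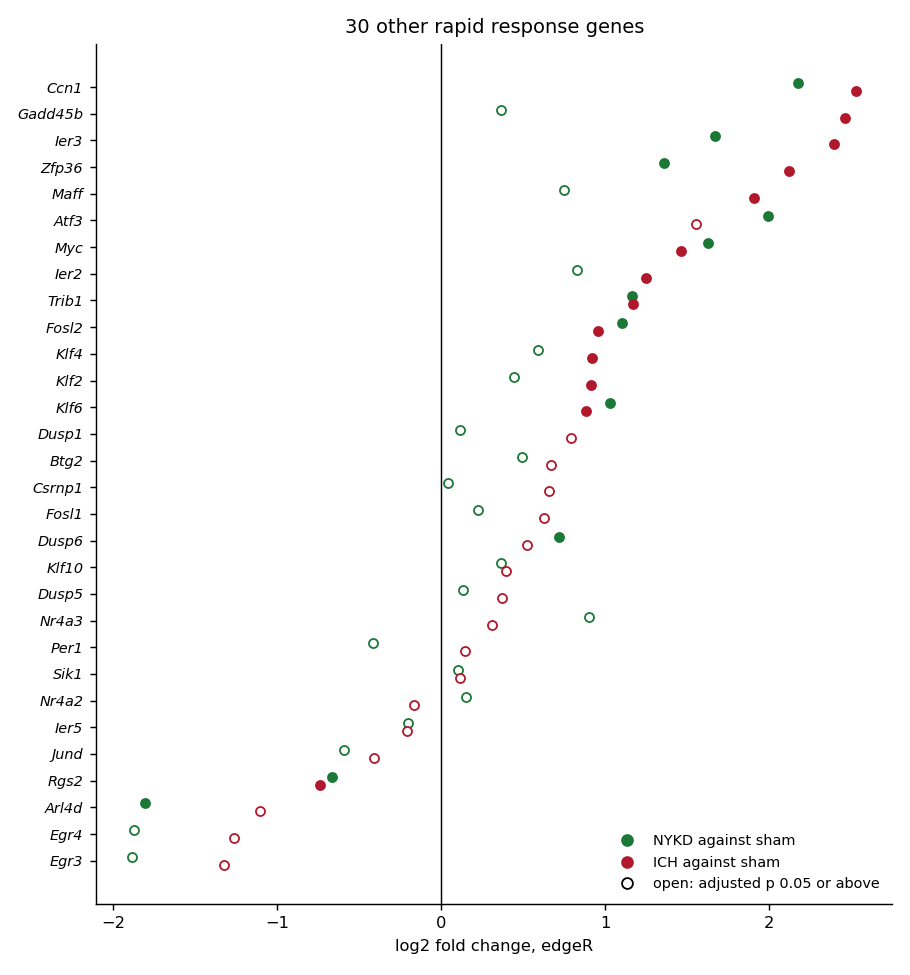
Log2 fold changes of 30 other rapid response genes in NYKD against sham and ICH against sham, ordered by ICH against sham, filled where the adjusted p passed 0.05. In ICH 12 genes are raised and Rgs2 is lowered, while Egr3 and Egr4 lie at the lower end without passing.

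Genes that follow the immediate early wave came next. Of 15 delayed activity-induced genes, Ptgs2, the inducible cyclooxygenase, rose in ICH against sham by 2.47 ± 0.70 (adjusted p = 0.0261) and Vgf, a neuropeptide precursor, fell by 0.91 ± 0.27 (adjusted p = 0.0290). The neuropeptide precursor gene Scg2 gave -0.67 (adjusted p = 0.0743). Without ICH replicate 4 Ptgs2 did not pass, at 1.37 (adjusted p = 0.0797), and Vgf did. With limma-voom Vgf passed and Ptgs2 did not. Of all genes tested, 12.4% rose and 4.58% fell in ICH against sham by edgeR. For NYKD against ICH 0 of 15 passed by edgeR and limma-voom and 1, Nrn1, by DESeq2, with 2 at an unadjusted p under 0.05 in edgeR. For NYKD against sham 0 of 15 passed by edgeR and limma-voom and 3 by DESeq2, Ptgs2 raised and Plk2 and Rasgrp1 lowered, with 5 at an unadjusted p under 0.05 in edgeR. Without ICH replicate 4 edgeR called 3 there, Ptgs2 raised and Nptx2 and Plk2 lowered, where 16.8% of all genes were raised and 9.34% lowered. List medians were -0.42 in ICH against sham, 0.25 in NYKD against ICH and -0.17 in NYKD against sham. Bdnf, the neurotrophin, gave -0.31 in ICH against sham and 1.03 in NYKD against ICH, neither of which passed.

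Among 22 genes of calcium and ERK signalling to transcription, the calmodulin-dependent kinase kinase Camkk2 fell in ICH against sham by 1.03 ± 0.33 (adjusted p = 0.0389), and 3 of the 22 fell without ICH replicate 4. With limma-voom 0 of 22 passed in ICH against sham. Of all genes, 4.58% fell in that comparison by edgeR, and 5.16% without ICH replicate 4. Against sham, 4 fell and 0 rose in NYKD, where 8.08% of all genes fell and 15.3% rose. Without sham replicate 1, 6 fell and 0 rose, where 7.37% of all genes fell and 14.4% rose. With all libraries the 4 were Camkk2 (-1.29), the kinase Rps6ka5 (-1.04), the calcineurin subunit Ppp3ca (-1.13) and the kinase subunit Camk2b (-1.12). Between NYKD and ICH 0 of 22 passed by edgeR, DESeq2 or limma-voom, and 0 had an unadjusted p under 0.05. With both ICH replicate 4 and sham replicate 1 left out, 7 of 22 fell in ICH against sham, among them Srf and Camk4. In that setting 6.79% of all genes fell. List medians were -0.42 in ICH against sham, 0.00 in NYKD against ICH and -0.31 in NYKD against sham.

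Of 13 synaptic partners of Homer and Arc, 4 fell and 2 rose in ICH against sham, where 4.58% of all genes fell and 12.4% rose. The endophilin Sh3gl3, an Arc partner in endocytosis, was at 35.8 ± 5.63 CPM in ICH and 58.0 ± 7.05 CPM in sham libraries (SD, n = 5 each; edgeR adjusted p = 0.00173). The scaffolds Shank3 and Shank1 fell by 1.02 and 0.80, while Homer3 and the dynamin Dnm2 were raised by 0.71 and 0.53. Shank1 did not pass without ICH replicate 4, nor Dnm2 without sham replicate 1. Against sham, Sh3gl3 in NYKD fell by 1.06 and Dlg4, which encodes PSD-95, by 0.89, and Homer3 and Dnm2 rose by 0.88 and 0.58. In NYKD against sham 8.08% of all genes fell and 15.3% rose. Dlg4 did not pass in ICH against sham with all libraries by edgeR, but DESeq2 called it lowered there. It was also called lowered there by edgeR without ICH replicate 4 or without sham replicate 1. With limma-voom Dlg4 passed in neither comparison with sham. Between NYKD and ICH 0 of 13 passed by edgeR and limma-voom and 2 by DESeq2, among them Shank1, with 3 at an unadjusted p under 0.05 in edgeR. List medians were -0.70 in ICH against sham, 0.20 in NYKD against ICH and -0.09 in NYKD against sham.

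The genes whose profiles over the 15 libraries lay closest to Arc, by root-mean-square difference of centred log2 CPM, were Insyn1 (0.293), Cdk5r2 (0.312) and Ppp1r3g (0.358). Those closest to Fos were Rras (0.168), Mcl1 (0.183) and Tspan4 (0.200). Insyn1 averaged 77.6 CPM in NYKD, 74.8 CPM in ICH and 184 CPM in sham libraries. Mcl1 averaged 189 CPM in NYKD, 214 CPM in ICH and 96.4 CPM in sham libraries.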

How the data were processed

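Poly-A RNA-seq of the ipsilateral basal ganglia was deposited by the authors as 1 table of raw counts per Ensembl gene, 1 column per mouse, not normalised. Per the submitters' processing notes, HISAT2 2.0.5, edgeR 3.22.5 and mm10 were used, with no roles stated. The counting program, its annotation and its use of strand are unstated (not given in the sources used here). Groups came from the sample titles. Symbols and coordinates were taken from GENCODE mouse release M21 (GRCm38), which matched 54495 of 54532 genes; the others held 0.013% of counts. Members and gene lists were chosen with earlier results of these data known.

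Genes were filtered with filterByExpr (18052 kept), scaled by TMM and fitted over all 15 libraries with edgeR 4.0.16 (R 4.3.3) by robust quasi-likelihood, with Benjamini-Hochberg adjustment over all genes tested. SEs are approximate, from dividing the size of each log2 fold change by the root of its F statistic. Log2 CPM used a prior count of 2. CPM per kb used the summed exon length of the gene. The fit was tested on simulated data. Alternatives were RLE size factors, library totals, no count filter, at least 1 CPM in 5 libraries, DESeq2 1.42.0, limma-voom (limma 3.58.1), non-robust dispersions, fits of 2 groups, a replicate block and leaving out each library, with list counts also without ICH replicate 4, sham replicate 1 or both. Named genes were the 10 members, the 3 smallest p per pathway list and comparison, and the 3 nearest profiles of Arc and of Fos; others were named after their values were seen. Values of 1 gene of the synaptic partner list are not reported here.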

Additional observations from a re-analysis of the deposited data

Results flagged for a closer look

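In 4 of the 30 groups of 5 libraries examined (10 members, 3 groups), 1 library lay far from the other 4. The rule was a gap to the nearest library above 0.71 of the range, in CPM. Chance gives about 1 in 20 only for normally distributed, independent values. That was not checked here, and members of the same library are not independent. Junb in ICH replicate 4 was at 194.7 CPM, against 27.3 to 55.9 CPM in the other ICH libraries. Egr1 in the same library was at 267.0 CPM, against 50.7 to 79.3 CPM. That library also held the highest neutrophil marker sum, 514.8 CPM, and, within the ICH group, the highest striatal neuron marker level (7.68 log2 CPM) and the lowest oligodendrocyte (8.43), microglial (5.69), astrocyte (8.68) and thalamic (4.04) levels. The part of these cells in the Junb and Egr1 levels was not tested. Jun in sham replicate 1 was at 65.4 CPM, against 37.8 to 44.1 CPM in the other sham libraries, and that library had the lowest striatal marker mean of its group. Nr4a1 in NYKD replicate 5 was at 10.6 CPM, against 16.5 to 18.4 CPM in the other NYKD libraries, and that library had the lowest striatal marker mean of all 15, at 3.36 log2 CPM.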

How the results depend on the processing

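Over 25 alternatives, Arc, Fos and Jun kept their calls in ICH against sham, and Arc, Fos, Jun, Npas4 and Nr4a1 in NYKD against sham. Npas4 in NYKD against ICH passed in 12 of 25, with adjusted p from 0.00435 to 0.101. DESeq2 called 6 members and 3945 genes in ICH against sham (3062 genes by edgeR), 8 members and 5162 genes in NYKD against sham (4225 by edgeR), and 1833 genes in NYKD against ICH; limma-voom called 387 genes and 0 members there. Leaving out 1 library gave 3 to 6, 0 to 1 and 5 to 8 members, and 2127 to 3270, 0 to 1508 and 2810 to 4784 genes, for the comparisons ICH to sham, NYKD to ICH and NYKD to sham. Leaving out both ICH replicate 4 and sham replicate 1 gave 8, 0 and 8 members and 0 genes in NYKD against ICH. The labels do not say whether replicate numbers pair the mice. Correlations of same-numbered libraries ran from -0.31 to 0.24, which cannot settle it. A replicate block gave 4, 0 and 5 members, 0 genes in NYKD against ICH, and Npas4 there at -1.30 (adjusted p = 0.0762).

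Signs turned for members that were not called. In ICH against sham, Fosb was 0.11 with library totals and -0.81 to 0.34 on leaving out 1 library. In NYKD against ICH, Homer1 was 0.020 with no count filter and -0.19 to 0.19 on leaving out 1 library. There, leaving out 1 library also gave ranges of -0.93 to 0.13 for Fosb, -0.93 to 0.074 for Junb, -0.85 to 0.038 for Egr1 and -0.81 to 0.16 for Egr2, each positive only without ICH replicate 4. Without sham replicate 1 as well, the values were 0.13 for Fosb, 0.074 for Junb, 0.037 for Egr1, 0.16 for Egr2 and 0.17 for Homer1. The cause was not tested. Of called genes, 73.0% were raised in ICH against sham and 34.4% in NYKD against ICH, against 83.4% and 20.1% with library totals and 64.2% and 41.3% with RLE size factors. Egr2 and Npas4 are limited by depth, with as few as 11 and 19 counts in a library.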
